A study of Mus musculus with 56 samples.

Results

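The kidney time course under daytime-restricted feeding (DRF) consisted of 28 libraries of the 56 in the series, namely every library that the labels placed under DRF. It held 7 groups of 4 mice, sampled every 4 h from ZT0 to ZT24, where ZT (zeitgeber time) counts hours from lights on. The mice were female C57BL/6J, an inbred wild-type strain with no transgene, aged 9 weeks, under 12 h of light and 12 h of dark, and food had been restricted to the day for 7 days. The other 28 libraries came from mice of the same strain, sex and age with food at night (nighttime-restricted feeding, NRF), in 7 groups of 4 at the same times, and are used here for the filter on low values and where DRF and NRF are compared. Poly(A) RNA of the kidney was sequenced, and ZT24 was placed at the phase of ZT0, so that the course had 6 clock times with 8 mice at ZT0/24. The labels give 1 kidney library per mouse number but not the hours of food access within the day. Because the tissue was taken in bulk, fewer cells of a type and less RNA per cell cannot be told apart.

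The kidney carries its own circadian clock, in which BMAL1 with CLOCK or NPAS2 activates the Per and Cry genes and the PER and CRY proteins then repress BMAL1. Filtration and the handling of salt, water, phosphate and urate are known to follow the time of day, and feeding is a strong time cue for clocks outside the brain. Fasting is known to engage PPARA, the nuclear receptor of fatty acid oxidation, and feeding to engage the SREBP factors of lipid synthesis, while genes of protein folding have been described to cycle more than once a day.

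The DRF libraries had effective sizes of 24.8 to 28.9 M reads (M for 1e6), and each correlated with the others of its group at a median r of 0.975 to 0.995 across genes. The lowest value was that of ZT4 replicate 4. Summed levels of marker genes differed between mice of a group. The 10 markers of collecting duct and medulla summed to 2860 TPM (transcripts per 1e6 transcripts) in ZT4 replicate 4 and to 1080 to 1140 TPM in the other ZT4 mice, and ranged from 734 to 2140 TPM at ZT20. The 10 adipose markers summed to 503, 89.6, 153 and 622 TPM at ZT12 and to 513, 77.1, 114 and 1110 TPM at ZT20, against 52.6 to 71.8 TPM at ZT8. The 7 blood markers summed to 4290 to 7910 TPM at ZT8 and to 1720 to 3930 TPM at ZT4. The 10 markers of the proximal tubule, which fit the labelled tissue, summed to 8140 to 13000 TPM in every DRF library. The part of these markers in the rhythms was not tested unless a value is given.

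To find which functions peaked at which time, a 24-h wave was fitted to log2(TPM + 1) of 13356 genes with limma. Its amplitude is the height of the wave above its mean, so peak and trough lie 2 amplitudes apart. Under DRF, 4626 genes, or 34.6% of those tested, had a 24-h rhythm at a Benjamini-Hochberg adjusted p under 0.05, and their median amplitude was 0.17 against 0.11 over all genes tested. Most of these rhythms were shallow, since 756 genes had a fitted peak-to-trough ratio of at least 1.5 and 174 of at least 2. Fitted peaks fell in the light phase for 2718 genes (58.8%) and in the dark phase for 1908 (41.2%). Grouped by the nearest sampled clock time, the ZT0 window held 1041 genes (7.79% of those tested), the ZT4 window 1011 (7.57%), the ZT8 window 876 (6.56%), the ZT12 window 591 (4.42%), the ZT16 window 325 (2.43%) and the ZT20 window 782 (5.86%). The median standard error (SE) of a peak time was 0.931 h, so a gene near the border of 2 windows can belong to either.

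**Figure D1:**
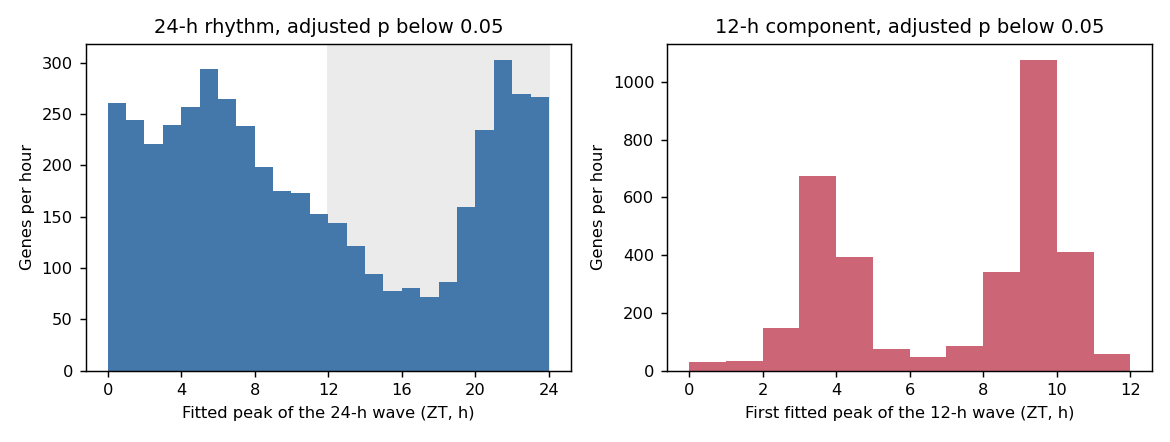
Number of genes per hour (vertical axes) by the fitted peak of the 24-h wave (left, ZT in hours, dark phase shaded) and by the first fitted peak of the 12-h wave (right, ZT in hours), for genes past the test under DRF. The 24-h peaks were fewest between ZT17 and ZT18, with 72 genes, and most between ZT21 and ZT22, with 303 genes, and the 12-h peaks gathered between ZT3 and ZT4, with 673 genes, and between ZT9 and ZT10, with 1077 genes.

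Genes with a peak near ZT0 included part of the clock, of fatty acid oxidation and of autophagy. Wsb1, which encodes a WD-repeat protein of a ubiquitin ligase, lay at 272, 362, 278 and 253 TPM in the ZT0 mice and at 80.0, 103, 76.7 and 80.9 TPM in the ZT16 mice. All 8 mice of ZT0/24, with a lowest value of 238, a median of 282 and a highest value of 362 TPM, were above every ZT16 mouse, and the fitted amplitude was 0.91 ± 0.08 (SE) with an adjusted p of 2.93e-08. Npas2, the partner of BMAL1, showed a deeper wave. It lay at 16.6, 20.2, 15.8 and 17.2 TPM at ZT0 and at 0.993, 0.659, 1.08 and 0.698 TPM at ZT8, with no overlap, an amplitude of 1.74 ± 0.08 and a peak at ZT22.0 (adjusted p = 2.81e-14). Npas2 has a mean under the level set for single genes and is named as a member of the clock list.

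Of the 3 genes named for the ZT0 window by amplitude, Cyp24a1, the enzyme that inactivates vitamin D, had the largest. It had an amplitude of 1.23 ± 0.22, below that of Npas2, and a fitted peak at ZT22.3 (adjusted p = 0.00044). Its mice were widely spread. The ZT20 mice lay at 560, 130, 224 and 180 TPM, the ZT0/24 mice between 54.7 and 314 TPM with a median of 88.5, and the ZT12 mice at 14.5, 20.7, 20.2 and 25.3 TPM. Every ZT20 mouse was above every ZT12 mouse, while the ZT0/24 mice overlapped those of ZT20. Loxl4, an enzyme that cross-links collagen, peaked at a similar time (ZT22.4) with an amplitude of 0.78 ± 0.10 (adjusted p = 3.3e-06). Vdr, the vitamin D receptor, peaked at ZT22.0 with an amplitude of 0.47 ± 0.06 (adjusted p = 4.59e-06), and all its ZT20 mice, at 280, 261, 267 and 272 TPM, were above its ZT8 mice at 160, 138, 128 and 146 TPM.

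Of 28 tested genes of autophagy, 13 (46.4%, against 34.6% of all genes tested) had a 24-h rhythm. Of these, 5 peaked in the ZT0 window, 4 at ZT12 and 4 at ZT20. The list's median amplitude of 0.10 lay close to the 0.11 over all genes tested. Sqstm1, the cargo receptor p62, had a mean of 428 ± 20.1 TPM (SD, n = 4) at ZT0 and of 288 ± 10.4 TPM at ZT12 (adjusted p = 1.15e-06). Gabarapl1, which helps to form autophagosomes, peaked at ZT20.8, with 1460 to 1580 TPM at ZT20 and 713 to 776 TPM at ZT4 (adjusted p = 5.54e-05). In the ZT0 window lay Slc22a12, the urate transporter URAT1 of the proximal tubule, which had an amplitude of 0.45 ± 0.05 (adjusted p = 1.42e-07). It was measured at 1590, 1380, 1390 and 1440 TPM at ZT0 and at 569, 681, 736 and 798 TPM at ZT16, so the groups did not overlap. The interferon response list stayed below the background, since 2 of its 22 tested genes (Irf7 and Igtp) had a 24-h rhythm.

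In the ZT4 window the deepest rhythms were those of single genes for secreted or binding proteins, while the ribosome lists carried shallow ones. Fabp7, a fatty acid binding protein, lay at 23.4, 24.8, 21.7 and 15.1 TPM at ZT0, at 21.7, 21.9, 19.8 and 14.5 TPM at ZT4 and at 6.86, 6.17, 5.29 and 8.91 TPM at ZT16. The ZT16 mice were below every mouse of ZT0 and ZT4, and the amplitude was 0.79 ± 0.06 with a peak at ZT2.34 (adjusted p = 6.76e-10). Igfbp3, which binds insulin-like growth factors, peaked at ZT4.00 with an amplitude of 0.53 ± 0.09 (adjusted p = 0.000129) and lay between 256 and 537 TPM at ZT4 and between 139 and 230 TPM at ZT16. C1qtnf2, a secreted relative of complement C1q, had a fitted peak at ZT4.66 (amplitude 0.47 ± 0.10, adjusted p = 0.00242), although its highest mean, 15.9 ± 2.40 TPM, was that of ZT8.

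Of 19 tested genes of phosphate, calcium and vitamin D handling, 8 (42.1%, against 34.6% of all genes tested) had a 24-h rhythm. Of these, 2 lay in the ZT0 window, 2 at ZT4 and 4 at ZT20. Those of ZT4 were Pth1r and S100g. Pth1r, the parathyroid hormone receptor, peaked at ZT3.77 (0.22 ± 0.03, adjusted p = 7.23e-05), and S100g, the calcium-binding calbindin-D9k, at ZT3.84 (0.34 ± 0.06, adjusted p = 0.000271). Of 25 tested cell cycle genes, 13 (52.0%, against 34.6% of all genes tested) had a 24-h rhythm. Their peaks were spread, with 5 in the ZT4 window, 4 at ZT0, 3 at ZT20 and 1 at ZT12. Cdc20, an activator of the ligase that ends mitosis, was among those of ZT4, but its levels were low. They were 2.86, 5.66, 5.40 and 2.33 TPM at ZT4 and 2.01, 2.96, 0.976 and 1.49 TPM at ZT16, and these groups overlapped (adjusted p = 0.00312).

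Genes of the cytosolic ribosome that had a 24-h rhythm peaked in the ZT4 or ZT8 window. Of 74 tested genes, 24 had a 24-h rhythm, 16 of them in the ZT4 window and 8 at ZT8, which is a share of the list below the background of 34.6%, with a median amplitude of 0.08. Rpl27 rose from a mean of 304 ± 14.8 TPM at ZT20 to 393 ± 34.2 TPM at ZT4 (adjusted p = 0.000748). The count depended on the scaling of the libraries and fell to 14 under median-of-ratios scaling. Genes of the mitochondrial ribosome gave 37 of 50, above the background, and 32 of 50 under that scaling. Of the 37, 22 peaked in the ZT8 window, 13 at ZT4 and 2 at ZT12. Mrpl12 was at 274, 281, 263 and 240 TPM at ZT8 and at 215, 203, 196 and 191 TPM at ZT20, without overlap (amplitude 0.23 ± 0.03, adjusted p = 1.37e-05). Mrps34 peaked at ZT6.28 (0.26 ± 0.04, adjusted p = 4.3e-05).

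The ZT8 window held most of the proteasome and of the rhythmic cholesterol genes, and single genes such as Srebf1, Alas1 and Aqp2. Of 31 tested proteasome genes, 29 (93.5%, against 34.6% of all genes tested) had a 24-h rhythm, and 23 of them peaked in this window. Under both other scalings and under limma-voom, 29 or 30 were called. These waves were shallow, with a median amplitude of 0.11, the same as over all genes tested. Psmd1, a subunit of the regulatory particle, had a mean of 69.5 ± 5.82 TPM at ZT4, 68.3 ± 2.28 at ZT8 and 67.7 ± 1.89 at ZT12, against 57.8 ± 3.12 TPM at ZT0 (amplitude 0.16 ± 0.02, adjusted p = 9.51e-05). Psmd7 peaked somewhat earlier at ZT6.49 (0.14 ± 0.02, adjusted p = 4.88e-05). One subunit ran in nearly the opposite phase. Psmd11 peaked at ZT21.6 (0.16 ± 0.02, adjusted p = 5.34e-06), with 49.6, 47.6, 52.5 and 52.3 TPM at ZT0 and 42.7, 40.5, 37.6 and 39.5 TPM at ZT8.

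Srebf1, the factor that drives fatty acid synthesis, formed a plateau from ZT4 to ZT12. It lay at 47.5, 47.9, 50.4 and 57.3 TPM at ZT4, at 59.0, 61.6, 45.5 and 45.6 TPM at ZT8 and at 53.1, 49.7, 65.4 and 53.5 TPM at ZT12, and the ZT0/24 mice lay between 14.7 and 19.8 TPM with a median of 17.7. No mouse of the plateau overlapped any mouse of another time, the highest of which was 29.0 TPM at ZT20. The amplitude was 0.94 ± 0.08 with a fitted peak at ZT8.84 (adjusted p = 1.13e-08). Of 14 tested genes of fatty acid synthesis, 6 (42.9%, against 34.6% of all genes tested) had a 24-h rhythm. Of these, 3 lay in the ZT12 window and 1 each at ZT8, ZT16 and ZT20. Scd2, a stearoyl-CoA desaturase, peaked at ZT10.1, in the ZT12 window (0.67 ± 0.08, adjusted p = 3.56e-06).

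Of 23 tested genes of cholesterol synthesis and uptake, 14 (60.9%, against 34.6% of all genes tested) had a 24-h rhythm, 13 with a peak in the ZT8 window. The list's median amplitude was 0.32 against 0.11 over all genes. Insig1, which retains SREBP in the endoplasmic reticulum (ER), had a notch in its means, with 92.5 ± 8.34 TPM at ZT4, 66.5 ± 8.56 at ZT8 and 84.5 ± 8.78 at ZT12, and its ZT8 mice overlapped those of ZT12. Its 24-h amplitude was 0.71 ± 0.10 (adjusted p = 1.85e-05).

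Alas1, the first enzyme of heme synthesis, was at 119, 115, 136 and 168 TPM at ZT12 and at 40.2, 38.9, 40.3 and 30.1 TPM at ZT20, without overlap, and peaked at ZT9.29 (0.86 ± 0.09, adjusted p = 2.61e-07). Ciart, a repressor of BMAL1, was sharper, with 28.3, 25.8, 17.0 and 20.2 TPM at ZT8 and 1.35 to 3.22 TPM at ZT0/24 (median 2.18). All its ZT8 mice were above the mice of every other time, whose highest value was 9.44 TPM (amplitude 1.48 ± 0.09, adjusted p = 8.65e-12). Slc9a3, the sodium-proton exchanger NHE3, peaked at ZT9.15 (0.26 ± 0.04, adjusted p = 0.000263), and its scaffold Slc9a3r1 at ZT9.66 (0.24 ± 0.04, adjusted p = 6.27e-05).

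Aqp2, the vasopressin-regulated water channel of the collecting duct, was at 903, 861, 744 and 773 TPM at ZT8 and between 129 and 324 TPM with a median of 208 at ZT0/24. These groups did not overlap, and the amplitude was 0.83 ± 0.16 (adjusted p = 0.000766). The ZT4 mice lay at 378, 364, 381 and 1170 TPM, and the high one was the mouse with the 2860 TPM of collecting duct and medulla markers. Those markers, of which Aqp2 is one, summed to 1620 to 1850 TPM at ZT8 and to 732 to 1260 TPM at ZT0/24. Without ZT4 replicate 4 the Aqp2 amplitude was 0.80 (adjusted p = 0.000264). Of 10 tested genes of water and urea transport, 5 had a 24-h rhythm, namely Aqp2 and Aqp3 in the ZT8 window and Aqp1, Aqp11 and Avpr2 at ZT12. Aqp1, the channel of the proximal tubule, had means of 1210 ± 132 TPM at ZT12 and 837 ± 92.0 TPM (n = 8) at ZT0/24 (amplitude 0.26 ± 0.04, adjusted p = 0.000133). Aqp3, on the basolateral side of the collecting duct, lay at 306, 346, 271 and 298 TPM at ZT8 and at 130 to 194 TPM at ZT0/24 (0.41 ± 0.07, adjusted p = 0.000156).

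The ZT12 window held Per2, a repressor of the clock, and targets of the glucocorticoid receptor. Per2 lay at 51.8, 52.7, 44.1 and 65.8 TPM at ZT12, at 48.3, 37.0, 42.8 and 37.1 TPM at ZT16 and between 3.91 and 10.8 TPM with a median of 5.20 at ZT0/24. No ZT12 mouse overlapped a ZT0/24 mouse. The amplitude was 1.45 ± 0.14 with a peak at ZT11.4 (adjusted p = 8.53e-08), and the means of ZT4 and ZT8 (26.6 ± 6.84 TPM at ZT8) formed a shoulder before the peak. Usp2, a deubiquitinase under clock control, peaked at ZT10.9 (0.85 ± 0.06, adjusted p = 9.71e-11), and Wee1, a kinase that delays mitosis, at ZT12.3 (0.44 ± 0.05, adjusted p = 2.61e-07).

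Of 19 clock and clock output genes tested, 17 (89.5%, against 34.6% of all genes tested) had a 24-h rhythm under DRF. Of these, 5 peaked in the ZT12 window, 4 at ZT8, 4 at ZT20, 2 at ZT16, 1 at ZT0 and 1 at ZT4. The list's median amplitude was 1.03. Nat8f5, a member of a family of kidney N-acetyltransferases with near-identical copies, had a fitted peak at ZT12.7 (amplitude 1.14 ± 0.19, adjusted p = 0.000151). It lay at 98.3, 89.0, 122 and 96.1 TPM at ZT12 and 5.34 to 26.0 TPM (median 15.6) at ZT0/24. Its ZT4 mice, at 55.4, 57.2, 36.3 and 43.8 TPM, were all above its ZT8 mice at 23.1, 35.1, 18.8 and 22.2 TPM. Its recovered reads were accepted as whole numbers, which gives no sign of reads split between copies. Reads that fit several copies may have been lost, which was not tested. Herpud1, a gene of the unfolded protein response, was the single one of 23 tested in its list with a 24-h rhythm (peak ZT11.8, 0.50 ± 0.07, adjusted p = 1.22e-05).

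Targets of the glucocorticoid receptor gave 10 of 15 (66.7%, against 34.6% of all genes tested) with a 24-h rhythm. Of these, 5 lay in the ZT12 window, 2 at ZT16, 2 at ZT0 and 1 at ZT20. The list's median amplitude was 0.50. Tsc22d3, the anti-inflammatory GILZ, was at 83.5, 108, 71.6 and 107 TPM at ZT12 and at 14.8 to 23.2 TPM (median 21.2) at ZT0/24, without overlap (0.94 ± 0.13, adjusted p = 1.32e-05). Fkbp5, a co-chaperone of the receptor, lay at 50.1, 35.4, 38.4 and 42.7 TPM at ZT16 and at 8.28, 8.14, 8.69 and 6.69 TPM at ZT4 (0.97 ± 0.14, adjusted p = 2.97e-05). Its ZT8 mice were split, at 19.5, 32.2, 8.50 and 9.91 TPM. Zbtb16, a transcriptional repressor, showed the same split at ZT8, with 16.1, 20.8, 4.16 and 5.51 TPM, and lay at 0.884 to 1.86 TPM at ZT4 and 9.85 to 43.5 TPM at ZT16 (amplitude 1.08 ± 0.25, adjusted p = 0.00409). It lost its call when ZT12 was left out (adjusted p = 0.0531).

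Few genes peaked near ZT16, among them Cry1, Hmox1, G6pc and Sgk1. Cry1, a clock repressor, was tight at its peak, with 26.7, 27.3, 27.2 and 27.4 TPM at ZT16 against 2.30 to 9.00 TPM (median 5.68) at ZT0/24 (1.21 ± 0.11, peak ZT15.6, adjusted p = 4.17e-08). The ZT16 mice of Cry1 were above the mice of all other times. Hmox1, which degrades heme, lay at 96.0, 259, 393 and 299 TPM at ZT16 and at 30.0, 30.4, 25.1 and 27.2 TPM at ZT8, and the lowest ZT16 mouse was overlapped by 1 mouse each of ZT4 (108 TPM) and ZT12 (96.1 TPM) and by 2 mice of ZT20, of which the higher was at 165 TPM (1.04 ± 0.21, adjusted p = 0.00126). Its call was lost when ZT16 was left out (adjusted p = 0.0968).

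Of 11 genes of gluconeogenesis and ammoniagenesis, 4 had a 24-h rhythm, 2 of them in the ZT16 window, a share near the background. G6pc, the phosphatase that releases glucose from the proximal tubule, lay at 1990, 1880, 2480 and 2210 TPM at ZT16, above every other mouse, and at 469, 607, 552 and 524 TPM at ZT8 (0.68 ± 0.13, adjusted p = 0.000891). Sgk1, the aldosterone-induced kinase that retains sodium, was at 312, 412, 212 and 489 TPM at ZT12 and at 57.1, 48.7, 76.2 and 95.4 TPM at ZT8 (0.83 ± 0.18, fitted peak ZT14.1, adjusted p = 0.0024). Its ZT4 replicate 4, at 207 TPM, stood above the other ZT4 mice at 85.5 to 95.7 TPM and is the mouse with high collecting duct and medulla markers. Scnn1a, the alpha subunit of the epithelial sodium channel, was at 258, 242, 232 and 230 TPM at ZT16 and at 150, 148, 172 and 151 TPM at ZT20 (0.23 ± 0.04, adjusted p = 0.00114). Of 12 genes of the epithelial sodium channel, aldosterone response and distal potassium secretion, 8 (66.7%) had a 24-h rhythm, 3 of them in the ZT16 window. Of 15 genes of sodium cotransport and the WNK kinases, 5 (33.3%) did, a share near the background of 34.6%. Their peaks lay at ZT8 (2), ZT12 (2) and ZT16 (1). Sult1a1, a sulfotransferase, was at 99.1 to 115 TPM at ZT16 and at 31.9 to 41.1 TPM at ZT4 (0.58 ± 0.08, adjusted p = 7.64e-06). Egf, made by the distal convoluted tubule and thick ascending limb, had means of 733 ± 95.5 TPM at ZT16 and 398 ± 67.3 TPM at ZT4 (0.30 ± 0.07, adjusted p = 0.0035).

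Liver-type transcripts moved with the same window. Of the 8 liver markers, 6 (75.0%, against 34.6% of all genes tested) had a 24-h rhythm with peaks in the ZT16 or ZT20 window. The sum of all 8 was 645 to 940 TPM at ZT16 and 422 to 696 TPM at ZT0/24. Alb, the serum albumin gene, lay at 53.5, 59.6, 83.4 and 156 TPM at ZT16, at 43.3, 22.5, 82.1 and 160 TPM at ZT20 and at 26.2, 31.5, 26.3 and 26.6 TPM at ZT4 (0.74 ± 0.15, adjusted p = 0.00167). The mice of ZT16 were all above those of ZT4, and those of ZT20 overlapped them. Ahsg, a liver protein of serum, was at 0 to 0.364 TPM at ZT4 and reached 12.7 and 13.8 TPM in replicate 4 of ZT16 and of ZT20.

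The ZT20 window was that of fatty acid oxidation. Of 28 tested genes of PPARA targets and fatty acid oxidation, 17 (60.7%, against 34.6% of all genes tested) had a 24-h rhythm. Of these, 11 had a peak at ZT20, 5 at ZT0 and 1 at ZT8, and the list's median amplitude was 0.19. Pdk4, which blocks the oxidation of pyruvate, had the largest amplitude among the genes named for the 6 windows, 2.37 ± 0.13, a fitted peak-to-trough ratio of 26.6. It lay at 395, 214, 348 and 212 TPM at ZT20 and at 5.52, 7.16, 9.82 and 14.2 TPM at ZT8, and the ZT20 mice were above the mice of every other time, whose highest value was 132 TPM at ZT16 (adjusted p = 1.26e-12). Angptl4, an inhibitor of lipoprotein lipase, was at 135, 56.5, 102 and 55.2 TPM at ZT20, at 77.8, 62.1, 101 and 54.5 TPM at ZT16 and at 3.50, 5.80, 6.49 and 7.65 TPM at ZT8. The mice of ZT16 and ZT20 overlapped each other and not those of ZT8 (2.03 ± 0.12, peak ZT18.9, adjusted p = 2.33e-12).

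Smaller waves of the same list belonged to carnitine transport and acyl-CoA handling. Slc25a20, the mitochondrial carnitine-acylcarnitine carrier, lay between 52.9 and 62.2 TPM at ZT20 and at 27.2, 27.9, 27.7 and 28.5 TPM at ZT8 (0.50 ± 0.05, adjusted p = 4.37e-08). Acot2, a mitochondrial thioesterase whose reads include fractions shared with close copies, had means of 92.3 ± 14.1 TPM at ZT20 and 37.3 ± 2.48 TPM at ZT8 (0.72 ± 0.07, adjusted p = 7.96e-08). Slc22a5, the carnitine transporter of the plasma membrane, peaked at ZT20.3 (0.34 ± 0.04, adjusted p = 8.29e-07).

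Ypel2 had an amplitude of 1.35 ± 0.07 with little spread. Its mice lay at 47.1, 36.7, 46.5 and 51.8 TPM at ZT20 and at 7.43 to 8.95 TPM at ZT12, with no overlap (adjusted p = 4.77e-13). Arntl, which encodes BMAL1, was at 14.8, 10.5, 14.9 and 12.4 TPM at ZT20 and at 1.20, 1.40, 2.79 and 1.96 TPM at ZT8 (1.20 ± 0.07, peak ZT20.6, adjusted p = 8.65e-12). Nfil3, a repressor of D-box genes, peaked at ZT18.4 (1.14 ± 0.12, adjusted p = 2.49e-07), and the growth regulator Myc at ZT19.4 (0.58 ± 0.07, adjusted p = 3.56e-06).

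Genes responsive to insulin and FOXO were spread over several windows. Over this list, 11 of 20 (55.0%, against 34.6% of all genes tested) had a 24-h rhythm, 4 at ZT20, 3 at ZT16, 3 at ZT12 and 1 at ZT0. Txnip, an inhibitor of glucose uptake, had means of 583 ± 126 TPM at ZT16, 572 ± 109 TPM at ZT20 and 246 ± 23.9 TPM at ZT12 (0.56 ± 0.11, adjusted p = 0.000916). Irs2, an insulin receptor substrate, was at 9.93, 8.61, 10.2 and 8.40 TPM at ZT16 and at 2.16, 2.91, 5.36 and 3.07 TPM at ZT12 (0.52 ± 0.11, adjusted p = 0.00291).

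**Figure D2:**
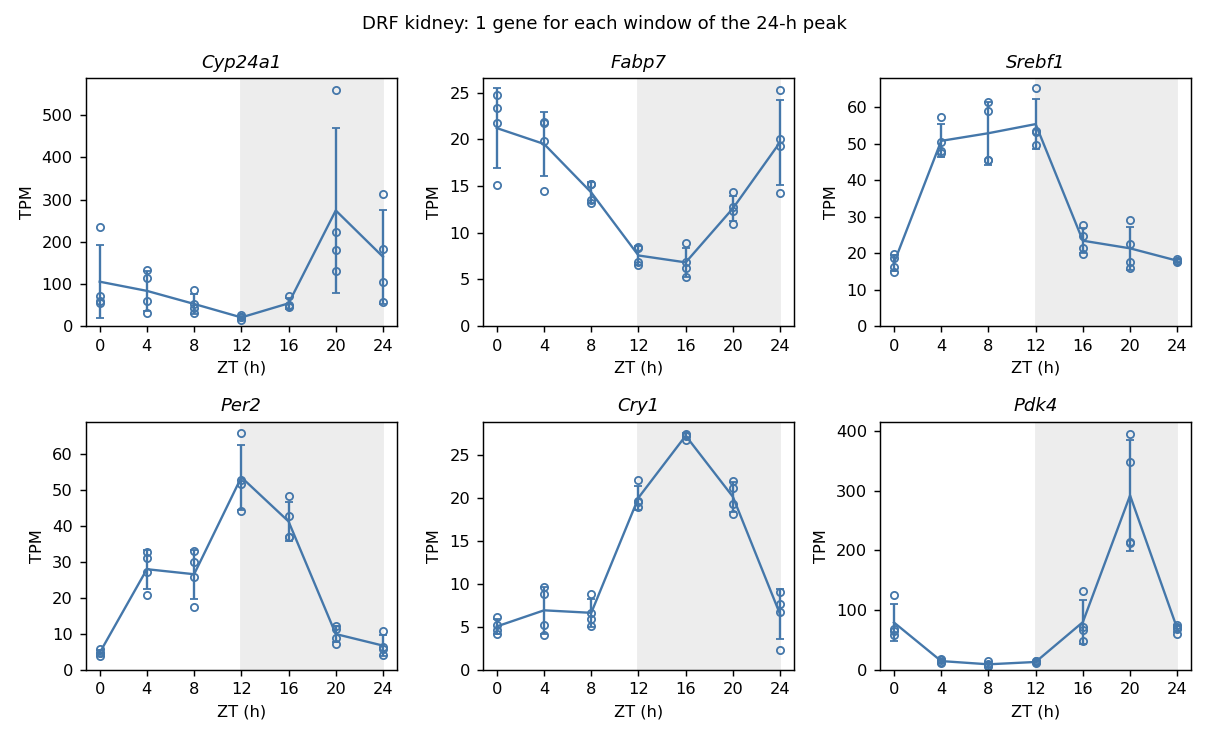
TPM (vertical axes) of 6 genes against ZT in hours under DRF, with circles for mice, lines for the means of 4 mice, bars for SD and the dark phase shaded. Each gene had its fitted 24-h peak in another window, from Cyp24a1 near ZT0 to Pdk4 near ZT20, and the plateau of Srebf1 from ZT4 to ZT12 lay between 45.5 and 65.4 TPM.

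**Figure D3:**
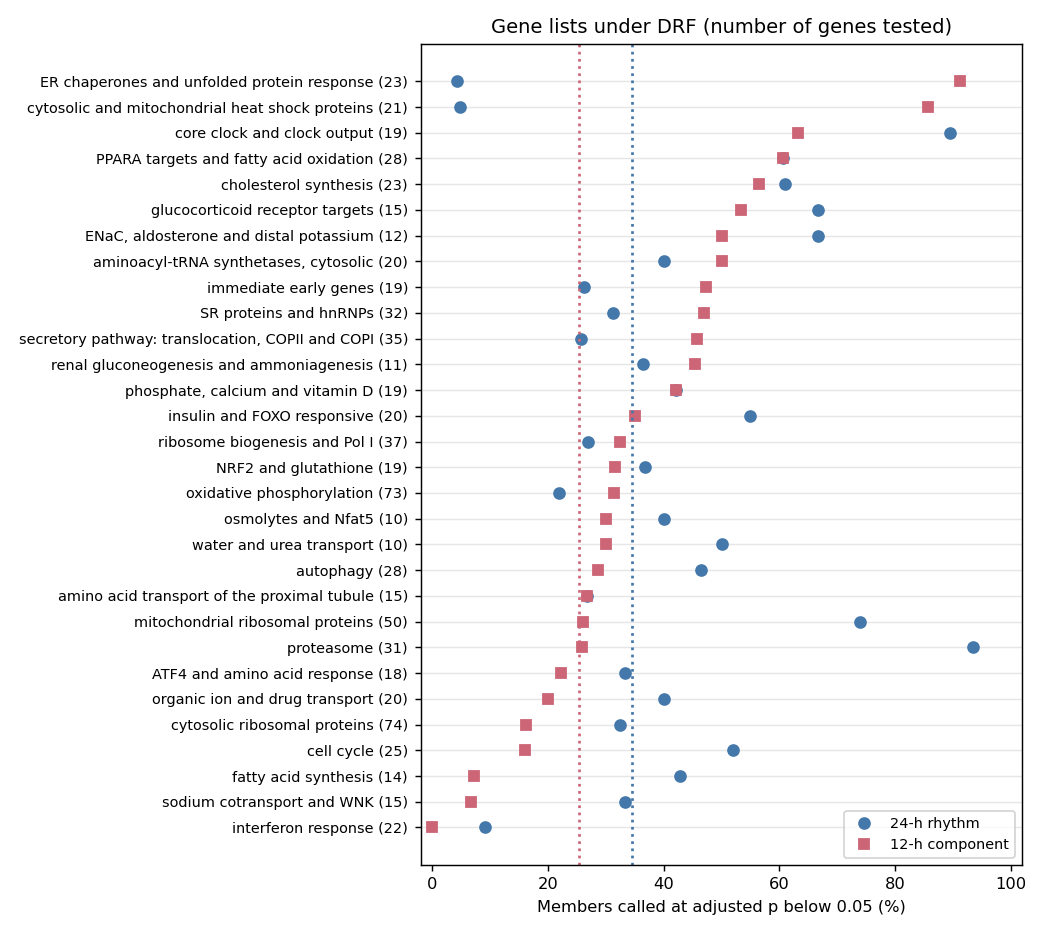
Percent of the tested members of each of 30 gene lists (number tested in brackets) that had a 24-h rhythm (circles) or a 12-h component (squares) at an adjusted p under 0.05, with dotted lines at the percent of all genes tested. The ER chaperones and heat shock proteins lay far right for the 12-h component and far left for the 24-h rhythm. The proteasome lay far right for the 24-h rhythm (93.5%) and next to the dotted line for the 12-h component (25.8%, against 25.3%).

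To find genes that ran through 2 cycles a day, a 12-h wave was tested beside the 24-h wave in the same 28 libraries. It passed in 3373 genes, or 25.3% of those tested, with a median amplitude of 0.17 against 0.09 over all genes. Of these genes, 1488 (44.1% of them, 11.1% of those tested) also had a 24-h rhythm, and in 2317 (68.7% of them, 17.3% of those tested) the 12-h amplitude was the larger one. The profile of the clock-time means had exactly 2 maxima in 3131 of these genes (92.8%) and in 9474 of all genes tested (70.9%). Classed by the nearest pair of sampled times, fitted peaks fell at ZT8 and ZT20 for 1551 genes (11.6% of those tested). They fell at ZT4 and ZT16 for 1291 (9.67%) and at ZT0 and ZT12 for 531 (3.98%). The most first peaks, 1077, lay between ZT9 and ZT10, next to the class border at ZT10. Another 411 lay between ZT10 and ZT11, in the class of ZT0 and ZT12. The border thus cut through a cluster, and the median SE of a 12-h peak time was 0.416 h. A gene near the border can belong to either class.

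A 12-h wave does not show by itself that both peaks stand out from their neighbours. A stricter test asked that each of both peak times exceed each of its neighbouring clock times. It was passed by 12 genes (0.0898% of those tested) for ZT4 and ZT16, and by 0 genes each (0.00%) for ZT8 with ZT20 and for ZT0/24 with ZT12. At an unadjusted p under 0.05, limma gave 202, 129 and 8 genes for the 3 pairs, and limma-voom on the recovered reads gave 157, 149 and 18 unadjusted and 20, 0 and 0 adjusted. The 12 genes were Hspa5, Creld2, Pdia4, Hspa8, Chordc1, Ahsa1, Hsp90ab1, Zbtb40, Ksr2, Ddo, P4ha2 and Mtmr4. Hsp90ab1, Zbtb40, Ksr2, Ddo, P4ha2 and Mtmr4 are named because the count is small and were chosen after their values were seen. The count rested on a few libraries, being 1 without ZT12 replicate 1, 2 without ZT16 replicate 1 or ZT16 replicate 2, 3 without ZT12 replicate 2, and 7 without ZT4 replicate 2 or any of ZT8 replicates 2, 3 and 4.

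The 4 genes with the largest flanks among the 12 belong to protein folding. Hspa5 encodes BiP, the main Hsp70 chaperone of the ER. It lay at 965, 780, 533 and 815 TPM at ZT4 and at 793, 641, 632 and 632 TPM at ZT16, and between these peaks at 243, 273, 286 and 301 TPM at ZT8 and 295, 348, 469 and 428 TPM at ZT12. After the second peak it was at 334, 300, 332 and 321 TPM at ZT20 and between 177 and 288 TPM with a median of 221 at ZT0/24. Every mouse of ZT4 and of ZT16 was above every mouse of the other 4 clock times. The 12-h amplitude was 0.86 ± 0.08 with peaks at ZT4.09 and ZT16.1 (adjusted p = 1.51e-07), the smallest flank was 0.82 ± 0.17 on the log2 scale (adjusted p = 0.0381), and no 24-h rhythm was called (amplitude 0.32 ± 0.16, adjusted p = 0.268).

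Creld2, an ER-resident protein induced by misfolded proteins, followed the same course. Its mice were at 164, 140, 82.0 and 131 TPM at ZT4 and 129, 96.0, 97.6 and 95.4 TPM at ZT16, against 42.0, 39.0, 43.0 and 37.3 TPM at ZT8, 49.0, 51.5, 67.8 and 68.3 TPM at ZT12, 40.9, 37.5, 38.8 and 32.6 TPM at ZT20 and at least 29.8 TPM (median 34.2) at ZT0/24. No mouse of the peak times overlapped a mouse of any other time, although ZT4 replicate 3 was low in both Creld2 and Hspa5. The 12-h amplitude of Creld2 was 0.97 ± 0.07, a fitted peak-to-trough ratio of 3.83 (adjusted p = 3.04e-09), and the smallest flank was 0.82 ± 0.15 (adjusted p = 0.0150). Pdia4, a protein disulfide isomerase of the ER, was at 266, 233, 169 and 250 TPM at ZT4 and 229, 193, 195 and 171 TPM at ZT16, above all other mice, of which the highest was 157 TPM at ZT12 (0.51 ± 0.05, adjusted p = 6.38e-08, smallest flank 0.55 ± 0.11, adjusted p = 0.0381).

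Hspa8, the constitutive Hsp70 of the cytosol, had the highest level of the 4. It lay at 3810, 3850, 3490 and 3540 TPM at ZT4, 1820, 1610, 1370 and 1550 TPM at ZT8, 1830, 1910, 1920 and 2720 TPM at ZT12, 3180, 3070, 3420 and 3130 TPM at ZT16, 1300, 1220, 1240 and 1270 TPM at ZT20 and 1160 to 1750 TPM (median 1440) at ZT0/24. Both peaks were free of overlap with all other times. The 12-h amplitude was 0.78 ± 0.05 with peaks at ZT3.63 and ZT15.6 (adjusted p = 2.33e-10), the smallest flank was 0.63 ± 0.10 (adjusted p = 0.00569), and this call was lost without ZT12 replicate 1 (adjusted p = 0.0602). Across single libraries left out, the adjusted p of the smallest flank ran from 0.0106 to 0.23 for Hspa5, from 0.00158 to 0.138 for Creld2 and from 0.00665 to 0.234 for Pdia4, and it exceeded 0.05 in 10, 4 and 12 of 28 cases. It exceeded 0.05 in 16 of 28 cases for each of P4ha2 and Mtmr4, with a highest value of 0.234, in 6 for Zbtb40, in 4 each for Hsp90ab1 and Ksr2 and in 3 for Ddo.

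The proximal promoters of genes of this pattern were read for the elements known to bind the factors of ER stress and heat shock. In the RefSeq promoters of build GRCm38.p6, 250 bases before to 50 after the start, the ER stress element (CCAAT and CCACG with 9 bases between them), on either strand, was held by 0.119% of 32851 promoters and by 8 of the 19 genes of the ER chaperone list with a promoter in the table (Hspa5, Hsp90b1, Pdia6, Calr, Canx, Dnajc3, Creld2 and Syvn1). The heat shock element (GAA, TTC and GAA, each 2 bases apart) was held by 0.603% of all promoters and by 4 of 16 heat shock genes (Hsph1, Hspe1, Hspd1 and Chordc1). No ER stress element overlapped a CACGTG E-box. Of the 12 genes with peaks at ZT4 and ZT16, 8 had a promoter in the table, 2 with the first element and 1 with the second. These 3 are printed 5′ to 3′ on the gene's strand with the matched letters in capitals, at chr2:34771840-34772139 (plus strand, match 65 bases before the start), chr15:88819396-88819695 (plus strand, 126 bases before the start, on the opposite strand) and chr9:18292017-18292316 (plus strand, 4 bases before the start). A match describes the sequence and is not evidence of binding.
Hspa5: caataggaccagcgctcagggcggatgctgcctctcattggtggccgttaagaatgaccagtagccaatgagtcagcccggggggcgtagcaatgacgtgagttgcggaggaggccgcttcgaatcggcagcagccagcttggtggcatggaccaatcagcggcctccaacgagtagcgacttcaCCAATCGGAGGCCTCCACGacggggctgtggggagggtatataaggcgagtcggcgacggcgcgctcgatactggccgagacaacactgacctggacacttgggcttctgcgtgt
Creld2: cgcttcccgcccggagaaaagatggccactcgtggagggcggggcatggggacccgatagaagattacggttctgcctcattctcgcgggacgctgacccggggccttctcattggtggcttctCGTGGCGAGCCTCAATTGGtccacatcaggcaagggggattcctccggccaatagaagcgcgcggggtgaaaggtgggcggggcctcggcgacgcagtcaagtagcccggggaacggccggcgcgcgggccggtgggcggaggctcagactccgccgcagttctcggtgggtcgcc
Chordc1: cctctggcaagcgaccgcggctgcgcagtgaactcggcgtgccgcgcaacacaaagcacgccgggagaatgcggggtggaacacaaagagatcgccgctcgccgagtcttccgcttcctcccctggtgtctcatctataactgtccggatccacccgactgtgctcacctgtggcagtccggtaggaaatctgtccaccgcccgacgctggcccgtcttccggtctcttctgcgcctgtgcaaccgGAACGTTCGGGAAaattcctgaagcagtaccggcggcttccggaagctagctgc

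**Figure D4:**
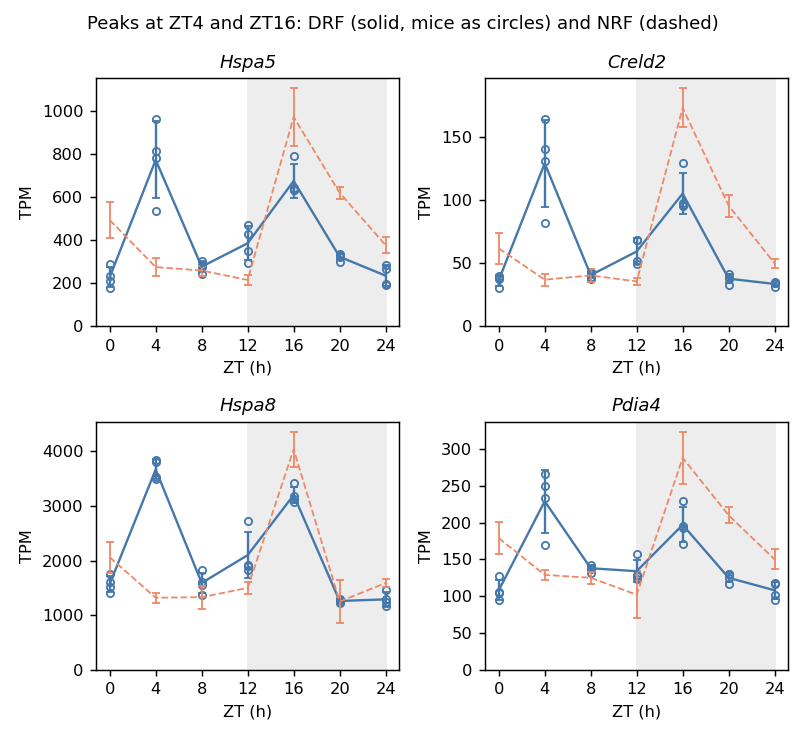
TPM (vertical axes) of Hspa5, Creld2, Hspa8 and Pdia4 against ZT in hours, with DRF means as solid lines, DRF mice as circles, NRF means as dashed lines, bars for SD (n = 4) and the dark phase shaded. Under DRF both ZT4 and ZT16 stand above the other times, and the NRF means are highest at ZT16.

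The other genes of the stricter test had smaller flanks. Chordc1, a co-chaperone of HSP90, lay at 31.5 TPM or above in all ZT4 mice, 40.9, 34.5, 32.0 and 34.4 TPM at ZT16 and at most 29.6 TPM at any other time (12-h amplitude 0.74 ± 0.05, adjusted p = 2.33e-10). Ahsa1, which activates the ATPase of HSP90, was at 64.3 to 74.0 TPM at ZT4 and 64.4 to 73.3 TPM at ZT16 and at most 54.8 TPM elsewhere (0.48 ± 0.03, adjusted p = 9.49e-10). Hsp90ab1, a cytosolic HSP90, was at 1480 to 1830 TPM at ZT4 and 1320 to 1780 TPM at ZT16 against 953 to 1030 TPM at ZT0/24, and its ZT12 mice reached 1320 TPM (0.38 ± 0.03, adjusted p = 3.27e-08). In the other 5 genes, all mice of ZT4 and ZT16 were above those of every other time except in Mtmr4, in which a mouse of another time reached 39.5 TPM. P4ha2, a collagen prolyl hydroxylase of the ER, was at 11.8 to 14.4 TPM at ZT4 and 12.2 to 14.0 TPM at ZT16 against 5.82 to 7.44 TPM at ZT0/24. Ddo, the oxidase of D-aspartate, was at 23.3 to 24.9 TPM and 24.6 to 28.1 TPM against 15.6 to 19.4 TPM. Ksr2, a scaffold of MAP kinase signalling, was at 4.47 to 4.89 TPM and 4.49 to 4.98 TPM against 2.42 to 3.66 TPM. Mtmr4, a phosphoinositide phosphatase, was at 37.6 to 43.0 TPM and 40.8 to 46.8 TPM against 27.9 to 34.7 TPM. Zbtb40, a zinc finger protein, was at 7.02 to 7.79 TPM and 7.55 to 8.25 TPM against 3.18 to 4.46 TPM.

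As groups, the folding machinery of the ER and of the cytosol carried the 12-h component nearly throughout. Of 23 tested ER chaperones and genes of the unfolded protein response, 21 (91.3%, against 25.3% of all genes tested) had it, all with peaks at ZT4 and ZT16. The means of 21 had maxima at exactly these times, against 1620 of the 13356 genes tested. The list's median 12-h amplitude was 0.34 against 0.09 over all genes, and 3 members passed the stricter test. Manf, a secreted ER stress protein, lay at 167, 130, 78.9 and 121 TPM at ZT4 and 95.3, 80.9, 82.5 and 94.3 TPM at ZT16, against 33.4 to 37.4 TPM at ZT8 (0.94 ± 0.09, adjusted p = 1.13e-07). Xbp1, a transcription factor of the response, had means of 244 ± 35.8 TPM at ZT4, 137 ± 6.71 at ZT8 and 188 ± 12.5 at ZT16 (0.37 ± 0.07, adjusted p = 0.00128). Herpud1 had both components, and its means climbed from 344 ± 56.7 TPM at ZT4 to 513 ± 60.7 TPM at ZT16.

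Of 21 tested heat shock genes of the cytosol and mitochondria, 18 (85.7%, against 25.3% of all genes tested) had a 12-h component, all with peaks at ZT4 and ZT16. The list's median 12-h amplitude was 0.41, and 1 gene, Fkbp4, had a 24-h rhythm. Stip1, which links HSP70 to HSP90, was at 244, 229, 199 and 274 TPM at ZT4, 273, 222, 207 and 204 TPM at ZT16 and 97.1 to 127 TPM at ZT20 (0.58 ± 0.05, adjusted p = 7.82e-09). Dnaja1, an Hsp40, had means of 160 ± 18.9 TPM at ZT4 and 126 ± 9.94 TPM at ZT16, and its ZT12 mice reached 130 TPM (0.63 ± 0.05, adjusted p = 2.06e-08). These counts leaned on ZT4. With ZT4 left out, which leaves 5 clock times, 10 of the 23 ER genes and 9 of the 21 heat shock genes passed, and without ZT4 replicate 4 alone 21 and 15 did.

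In the secretory pathway, 16 of 35 tested genes of translocation and vesicle coats (45.7%, against 25.3% of all genes tested) had a 12-h component. All 16 had fitted peaks at ZT4 and ZT16. The list's median amplitude was 0.07, and the means of 12 of 35 had maxima at exactly these times. Sec31a, an outer coat protein of COPII, had means of 96.3 ± 3.96 TPM at ZT4, 84.6 ± 7.86 at ZT8 and 90.7 ± 5.67 at ZT16 (0.17 ± 0.02, adjusted p = 6.01e-05), and Sec61b, a subunit of the translocation channel, 125 ± 7.80, 89.7 ± 4.31 and 95.7 ± 6.36 TPM (0.21 ± 0.04, adjusted p = 0.000874). Oxidative phosphorylation gave 23 of 73 (31.5%, against 25.3% of all genes tested), all at ZT4 and ZT16. Its count fell to 16 of 73 under median-of-ratios scaling and 11 under limma-voom. The count over all genes tested rose instead, from 3373 to 4115 and 4181. The means of 41 of 73 had maxima at exactly these times, against 1620 of the 13356 genes tested. Without ZT4 replicate 4 the count of genes with a 12-h component was 40. Atp5g1, a ring subunit of ATP synthase, lay at 310, 307, 310 and 263 TPM at ZT4, 249, 261, 256 and 273 TPM at ZT16 and 247, 245, 232 and 216 TPM at ZT8 (0.19 ± 0.03, adjusted p = 4.74e-05). Ndufa5, of complex I, was at 340 to 396 TPM at ZT4 and 352 to 377 TPM at ZT16 against 266 to 298 TPM at ZT8 (0.19 ± 0.03, adjusted p = 0.000177). Genes of cytosolic ribosomal proteins gave 12 of 74, below the background, and 4 under limma-voom. Rps2 was among the 12, with means of 1570 ± 63.7 TPM at ZT4 and 1420 ± 48.9 TPM at ZT16 against 1320 ± 44.1 TPM at ZT8 (0.13 ± 0.02, adjusted p = 0.000219).

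Splicing factors were divided between both main classes. Of 32 tested SR proteins and hnRNPs, 15 (46.9%, against 25.3% of all genes tested) had a 12-h component. Of these, 8 had peaks at ZT4 and ZT16 and 7 at ZT8 and ZT20. Tra2a, a splicing activator, was at 34.9, 29.0, 30.8 and 34.2 TPM at ZT4, 13.3, 13.4, 14.5 and 15.1 TPM at ZT8 and 32.0, 31.7, 26.6 and 29.1 TPM at ZT16 (0.58 ± 0.06, adjusted p = 3.26e-07). Hnrnpd, which binds AU-rich RNA, ran the other way with 41.1, 41.9, 42.7 and 41.3 TPM at ZT8, 26.2 to 30.0 TPM at ZT16 and 47.2, 42.9, 49.2 and 51.8 TPM at ZT20 (0.34 ± 0.03, adjusted p = 1.13e-08). Its relative Hnrnpdl behaved alike (0.33 ± 0.03, adjusted p = 2.84e-07).

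The class at ZT8 and ZT20 was the larger one and held Cirbp, fatty acid oxidation and immediate early genes. Cirbp, the cold-inducible RNA-binding protein, lay at 18.4, 20.3, 19.7 and 22.9 TPM at ZT4, 41.9, 42.8, 37.0 and 33.7 TPM at ZT8, 24.9, 22.4, 27.2 and 14.9 TPM at ZT12, 15.1 to 19.8 TPM at ZT16 and 60.1, 57.1, 54.9 and 61.5 TPM at ZT20. The ZT8 mice were all above those of ZT4 and ZT12, but the level stayed high from ZT20 to ZT24, where the ZT0/24 mice had a median of 50.3 TPM and a range of 39.5 to 69.6, so the evening peak was not set off from ZT0. The 12-h amplitude was 0.75 ± 0.06 (adjusted p = 2.06e-08) and the 24-h amplitude 0.56 ± 0.14 (adjusted p = 0.00797). Rbm3, the other cold-inducible gene tested, had a smaller 12-h component with peaks at ZT10.6 and ZT22.6 (0.22 ± 0.04, adjusted p = 0.000935).

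Of the 28 genes of PPARA targets and fatty acid oxidation, 17 (60.7%, against 25.3% of all genes tested) had a 12-h component. Peaks lay at ZT8 and ZT20 in 12 genes, at ZT0 and ZT12 in 5, and at ZT4 and ZT16 in none. The split between both classes moved with the scaling, to 7 and 10 under median-of-ratios scaling. Ehhadh, the peroxisomal bifunctional enzyme, lay at 911, 826, 850 and 917 TPM at ZT8 against 462 to 573 TPM at ZT4, and at 1570, 1520, 1490 and 1260 TPM at ZT20 (0.56 ± 0.06, adjusted p = 9.96e-07). Its ZT8 mice were above every ZT4 mouse and overlapped those of ZT12, of which one reached 966 TPM, and its ZT20 mice overlapped those of ZT0/24. Decr1, of unsaturated fatty acid oxidation, was at 181 to 206 TPM at ZT8, 156 to 166 TPM at ZT4 and 208 to 222 TPM at ZT20 (0.19 ± 0.03, adjusted p = 1.56e-05).

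Among 19 immediate early genes, 9 (47.4%, against 25.3% of all genes tested) had a 12-h component, 6 with peaks at ZT8 and ZT20, 3 at ZT0 and ZT12. Egr1, a transcription factor induced by growth signals, lay at 3.62 TPM in one ZT8 mouse and at 13.2 to 23.0 TPM in the others, and at 7.61, 6.24, 10.4 and 11.6 TPM at ZT20 against 2.53 to 4.73 TPM at ZT12 (0.73 ± 0.16, adjusted p = 0.00359, and 0.32 with ZT8 left out). Ier2 had means of 21.1 ± 4.37 TPM at ZT8 and 20.8 ± 2.73 TPM at ZT20 against 13.8 ± 2.42 TPM at ZT12 (0.33 ± 0.06, adjusted p = 0.000838). Wipi1, which binds phosphoinositides early in autophagy, was at 18.1 to 19.1 TPM at ZT8 and 8.07 to 11.2 TPM at ZT4 (0.48 ± 0.06, adjusted p = 4.16e-06).

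Transport lists of the proximal tubule lay near the background of 25.3%, with a 12-h component in 4 of 15 amino acid transporters, 3 of them at ZT8 and ZT20, and in 4 of 20 organic ion transporters, 2 of them in that class. Slc6a19, the main carrier of neutral amino acids, was at 344, 255, 307 and 235 TPM at ZT8 and at 84.4, 109, 86.5 and 79.6 TPM at ZT4, and its ZT8 mice overlapped the ZT0/24 mice, whose highest value was 268 TPM (0.56 ± 0.12, adjusted p = 0.00291). Slc1a1, a glutamate carrier, had smaller peaks at ZT9.92 and ZT21.9 (0.23 ± 0.03, adjusted p = 5.45e-05). Slc22a7, the organic anion transporter OAT2, was at 102 to 157 TPM at ZT4 and at 246 to 360 TPM at ZT8 (0.46 ± 0.12, adjusted p = 0.0155). Slc20a2, a sodium-phosphate cotransporter, peaked at ZT8.66 and ZT20.7 (0.16 ± 0.02, adjusted p = 6.29e-05), while Calb1, the calcium buffer of the distal convoluted tubule, peaked at ZT3.89 and ZT15.9 (0.30 ± 0.07, adjusted p = 0.00507).

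The class at ZT0 and ZT12 was the smallest, and 411 of its 531 genes had a first peak between ZT10 and ZT11, next to the class border. In it were 7 of the 15 tested glucocorticoid targets, against 3.98% of all genes tested. Per1, a clock repressor that is also induced by glucocorticoids, lay at 38.7, 48.4, 38.4 and 48.4 TPM at ZT12, 8.77, 7.23, 9.37 and 17.3 TPM at ZT20, 18.6 to 30.4 TPM (median 25.6) at ZT0/24 and 11.3, 7.76, 9.30 and 13.9 TPM at ZT4. The mice of ZT0/24 were above every mouse of ZT20 and ZT4, and ZT8, at 33.5, 20.2, 32.2 and 41.8 TPM, overlapped ZT12. The 12-h amplitude was 0.69 ± 0.12 with peaks at ZT11.8 and ZT23.8 (adjusted p = 0.000367), the 24-h amplitude 0.50 ± 0.17 missed the threshold (adjusted p = 0.0577), and the stricter test was not passed. Fkbp5 (0.44 ± 0.13, adjusted p = 0.0349), Sgk1 (0.64 ± 0.15, adjusted p = 0.00627) and Klf9 (0.27 ± 0.06, adjusted p = 0.00463) had 12-h components with peaks in the same class. Klf9, a zinc finger repressor, was at 142, 127, 122 and 124 TPM at ZT0 and at 74.2, 71.1, 84.2 and 82.8 TPM at ZT4.

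The E-box CACGTG, the site of BMAL1 with CLOCK, was held on either strand by 7.15% of the promoters, by 5 of 16 clock genes with a promoter in the table (Per1, Cry1, Tef, Ciart and Bhlhe41) and by 5 of 14 glucocorticoid targets. The glucocorticoid response element (GNACA and TGTNC, 3 bases apart) was held by 0.475% of the promoters and by 2 of those 14. A Per1 promoter is printed because this gene, a member of both lists, was highest on average at ZT12 and was higher in every mouse of ZT0/24 than in any mouse of ZT4 or ZT20. It lies at chr11:69098699-69098998 (GRCm38.p6, plus strand), with the E-box in capitals 166 bases before the start. Another Per1 promoter, at chr11:69099902-69100201 (plus strand), held no CACGTG. The part of the E-box in the timing of Per1 was not tested.
Per1: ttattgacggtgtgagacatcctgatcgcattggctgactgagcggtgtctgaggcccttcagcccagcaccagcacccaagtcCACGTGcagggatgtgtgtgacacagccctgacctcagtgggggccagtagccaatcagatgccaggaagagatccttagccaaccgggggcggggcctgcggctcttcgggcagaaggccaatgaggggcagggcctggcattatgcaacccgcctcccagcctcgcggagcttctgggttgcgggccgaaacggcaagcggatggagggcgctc

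**Figure D5:**
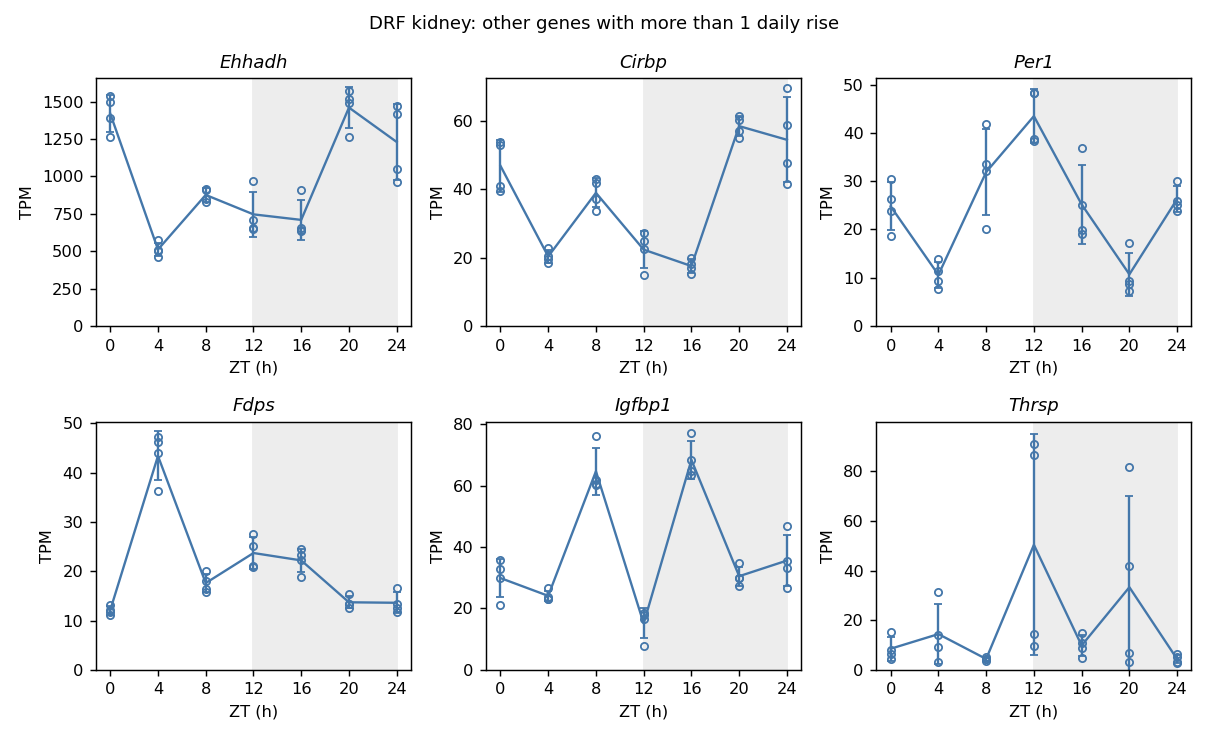
TPM (vertical axes) of 6 genes against ZT in hours under DRF, with circles for mice, lines for the means of 4 mice, bars for SD and the dark phase shaded. Ehhadh and Cirbp rise at ZT8 and again from ZT20, Per1 is highest at ZT12 and rises again at ZT0/24, Fdps is highest at ZT4, Igfbp1 at ZT8 and ZT16, and Thrsp is spread widely between mice at ZT12 and ZT20.

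With 6 clock times, the last pattern that can be fitted is an alternation between ZT0, 8 and 16 on one side and ZT4, 12 and 20 on the other. It was tested beside both waves and passed in 1332 genes (9.97% of those tested), of which 524 (3.92%) were higher at ZT0, 8 and 16 and 808 (6.05%) at ZT4, 12 and 20. Igfbp1, an insulin-repressed binding protein of insulin-like growth factors, was the clearest case. It lay at 60.6, 60.1, 76.2 and 61.9 TPM at ZT8 and 63.4, 77.2, 68.3 and 64.7 TPM at ZT16, and between these at 17.7, 16.5, 18.4 and 7.89 TPM at ZT12, while the ZT0/24 mice had a median of 33.0 TPM. All mice of ZT8 and ZT16 were above all others, the term was 0.60 ± 0.05 on the log2 scale (adjusted p = 1.78e-07), and neither the 24-h (adjusted p = 0.858) nor the 12-h term (adjusted p = 0.0655) was called. Of 20 insulin and FOXO responsive genes, 9 had this term, 7 in the direction of Igfbp1. Of 15 glucocorticoid targets 6 had it, all in that direction. Over all genes tested the shares were 9.97% for the term and 3.92% for that direction.

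Cholesterol synthesis alternated in the opposite direction, with 16 of 23 genes higher at ZT4, 12 and 20, against 6.05% of all genes tested. A 12-h component was called in 13 of 23 (56.5%, against 25.3% of all genes tested), all with fitted peaks in the class of ZT4 and ZT16. The means of only 5 of 23 had maxima at exactly these times, so the fitted peak at ZT16 was mostly not a maximum of the means. Fdps, the synthase of farnesyl diphosphate, was at 44.1, 46.2, 36.2 and 47.2 TPM at ZT4, 17.6 ± 1.91 TPM (mean ± SD) at ZT8, and 18.9 to 27.6 TPM at ZT12 and ZT16 (12-h amplitude 0.61 ± 0.08, adjusted p = 1.29e-05). Msmo1, a sterol methyl oxidase, and Idi1, an isomerase of the pathway, were higher at ZT4 than at ZT8 too, Idi1 with means of 88.5 ± 14.8 TPM at ZT4 and 35.4 ± 3.92 TPM at ZT8. The sterol regulatory element (ATCAC and CCAC, 1 base apart) was held by 0.234% of promoters and by 0 of 16 cholesterol genes with a promoter in the table.

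Fatty acid synthesis shared the direction, with 7 of 14 genes higher at ZT4, 12 and 20 and 1 in the other direction. Over all genes tested the shares were 6.05% and 3.92%. Part of the list moved with adipose markers. Fasn, fatty acid synthase, lay at 106, 36.2, 43.0 and 115 TPM at ZT12 and at 74.9, 20.7, 28.8 and 222 TPM at ZT20, so that the mice were split and overlapped other times. Thrsp, a lipogenic protein, was at 91.1, 9.56, 14.3 and 86.6 TPM at ZT12 and 42.0, 2.95, 6.57 and 81.6 TPM at ZT20, and Car3, the carbonic anhydrase of fat, at 127, 37.7, 52.0 and 200 TPM and 159, 33.4, 32.0 and 278 TPM. The high mice were replicates 1 and 4 at both times. These mice also had the high adipose marker sums, 503 and 622 TPM at ZT12 and 513 and 1110 TPM at ZT20. Car3 is itself one of these markers, so its values are part of those sums. Of the 9 adipose markers tested, 3 had the 8-h term and 1 a 24-h rhythm, against 9.97% and 34.6% of all genes tested. The term of Thrsp was -0.72 (adjusted p = 0.0283) and lost its call without any one of ZT4 replicate 4, ZT12 replicates 1 and 4, ZT16 replicate 2 and ZT20 replicates 1 and 4, with adjusted p from 0.0534 to 0.0575 and a term from -0.68 to -0.60. The term of Car3 was -0.71 (adjusted p = 0.00382), and without ZT20 replicate 4 it was -0.61 (adjusted p = 0.00637).

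Blood and immune transcripts alternated as well, towards ZT0, 8 and 16, in 3 of 6 tested blood markers and 4 of 8 tested immune markers. Over all genes tested, 3.92% had the term in that direction. Hbb-bs, a beta globin with a close copy in Hbb-bt, lay at 2250, 2410, 2790 and 1500 TPM at ZT8 and at 1360, 1320, 1300 and 593 TPM at ZT4 (adjusted p = 0.0334). Cd74, the invariant chain of antigen-presenting cells, had means of 670 ± 35.7 TPM at ZT8 and 406 TPM at ZT12 (adjusted p = 0.000402). In NRF2 and glutathione genes, 8 of 19 had the term towards ZT4, 12 and 20, against 6.05% of all genes tested. Among them was Gsta1, a glutathione transferase with close copies, at 30.8, 27.4, 45.6 and 25.5 TPM at ZT4 and 4.81 to 11.7 TPM at ZT8 (adjusted p = 0.00239).

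To see whether the 12-h component was particular to DRF, its difference from NRF was tested over all 56 libraries. The NRF course gave 7118 genes with a 24-h rhythm (53.3%) and 85 with a 12-h component (0.636%), but these counts by themselves do not test a difference. The difference itself passed in 522 genes (3.91% of those tested), of which 481 (3.60%) had the larger amplitude under DRF. Of the 3373 genes with a 12-h component under DRF, 484 (14.3%) differed from NRF, so for most of them a difference was not shown. The 522 genes fell into the classes of ZT8 and ZT20 (289), ZT4 and ZT16 (176) and ZT0 and ZT12 (57) by their DRF peaks. The 12-h calls under DRF and this test share the DRF libraries.

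Of the 12 genes with peaks at ZT4 and ZT16, Hspa5, Creld2, Chordc1, Ahsa1, Zbtb40, Ksr2 and Ddo differed from NRF and the other 5 did not pass. Hspa5 had NRF means of 274 ± 42.9 TPM at ZT4, 258 ± 23.4 at ZT8 and 973 ± 133 at ZT16 and a 12-h amplitude of 0.40 there against 0.86 under DRF (adjusted p = 0.0269). Creld2 had NRF means of 36.7 ± 4.73 TPM at ZT4, 40.1 ± 4.97 at ZT8 and 173 ± 15.4 at ZT16, and 12-h amplitudes of 0.44 under NRF and 0.97 under DRF (adjusted p = 0.00219). Both had their highest NRF mean at ZT16, and their NRF means at ZT4 were near those at ZT8. For Hspa8 the amplitudes were 0.50 under NRF and 0.78 under DRF (adjusted p = 0.158), and for Pdia4 0.32 and 0.51 (adjusted p = 0.262). Under NRF, 8 of the 23 ER genes and 4 of the 21 heat shock genes had a 12-h component, and the difference passed in 5 and 4. Over all genes tested the shares were 0.636% for the component under NRF and 3.91% for the difference.

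Cholesterol synthesis had 12 of 23 genes that differed, against 3.91% of all genes tested. Under NRF 0 of 23 had a 12-h component at the same threshold in limma, against 0.636% of all genes tested. Idi1 had a 12-h amplitude of 0.65 under DRF and 0.07 under NRF (adjusted p = 0.000561), and Msmo1 0.72 and 0.15 (adjusted p = 0.000947). Among clock genes 5 of 19 differed, in both directions, against the same 3.91%. Per2 had amplitudes of 0.66 under DRF and 0.27 under NRF (adjusted p = 6.64e-05), whereas Ciart had 0.34 under DRF and 0.82 under NRF (adjusted p = 1.66e-05). Of the splicing factors 7 of 32 differed, against 3.91% of all genes tested. Among them were Hnrnpl (0.25 and 0.06, adjusted p = 0.00216) and Hnrnpdl (0.33 and 0.07, adjusted p = 0.00533). G6pc differed too, with 0.64 under DRF and 0.24 under NRF (adjusted p = 0.00199). Per1 (0.69 and 0.42, adjusted p = 0.226) did not pass this test.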

How the data were processed

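Kidney poly(A) RNA of 56 mice was sequenced by the authors as paired-end reads of 100 bases, and per the labels the tools were HISAT2, Bowtie2 and RSEM with the builds mm10 and GRCm38.p6, without versions. The deposited values of one table, named TPM there, are treated as a score, since the authors' values behaved as log2(CPM + 1) divided by gene length and scaled so that columns sum to 999145 to 999753. They are not linear TPM, the unit assumed when the tests were set. Reads were recovered from them: 14715 of 17027 genes gave whole reads and 2270 gave hundredths of reads, the form of an estimated count, and 99.68% of the precise values were whole within 0.0002 reads. The length of 40 genes could not be checked and 2 had none, so these were not tested. TPM was then computed from the recovered reads.

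Rhythms were tested with limma 3.58.1 (R 4.3.3, mean-variance trend) on log2(TPM + 1) of 13356 genes (mean over all samples of 1 TPM or more), with Benjamini-Hochberg adjustment over all of them. The 24-h wave was tested alone, the 12-h wave beside it, the 8-h alternation beside both, and peaks at a pair of times by the largest of 4 one-sided p-values. Groups came from the labels. One NRF column at ZT24 carries a replicate number found in no title and was used as a member of its group only. The labels do not say that the mice came from separate cages, so p-values measure the spread between these mice. Python 3.11.15, numpy 2.4.6, pandas 2.3.3 and scipy 1.17.1 were used, and the code was tested on simulated data.

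The members and the 31 gene lists were chosen with earlier results of these data known. Named genes had a mean of at least 10 TPM and whole reads: the 3 largest 24-h amplitudes per window, the 4 largest flanks per pair of peaks, the 3 largest 8-h terms, and up to 4 genes of each list with the smallest adjusted p in the test concerned. Members of lists and markers below these limits are named as such. Alternatives changed the scaling, pseudocount, filter, unit, variance model, block and the libraries or times used. Some results that these rules select are not reported here.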

Additional observations from a re-analysis of the deposited data

Results flagged for a closer look

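Single mice stood apart from the other 3 of their group by Dixon's test in 14 of the 217 groups of 4 examined, and chance alone flags about 1 group in 20. In the 24-h genes these were Cyp24a1 at 235 TPM in ZT0 replicate 1, Wsb1 at 103 TPM in ZT16 replicate 2, Loxl4 at 4.87 TPM in ZT16 replicate 3, Srebf1 at 18.5 TPM in ZT24 replicate 1, Alas1 at 65.3 TPM in ZT0 replicate 4 and at 30.1 TPM in ZT20 replicate 4, Aqp2 at 1170 TPM in ZT4 replicate 4 and Pdk4 at 125 TPM in ZT0 replicate 1. Among genes with 2 peaks or an 8-h term they were Hspa5 at 793 TPM and Creld2 at 129 TPM, both in ZT16 replicate 1, Hspa8 at 2720 TPM in ZT12 replicate 4, Ddo at 17.8 TPM in ZT8 replicate 4, Car3 at 77.0 TPM in ZT4 replicate 2 and Igfbp1 at 76.2 TPM in ZT8 replicate 3.

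The 12-h component differed between DRF and NRF in 522 genes by the limma test of the difference itself, among them Hspa5 (adjusted p = 0.0269) and Creld2 (adjusted p = 0.00219).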

How the results depend on the processing

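The count of genes with a 24-h rhythm (4626) stayed within 1.5 times under every scaling, filter, pseudocount and variance model tried, and was 756 with a peak-to-trough ratio of at least 1.5. The 12-h count (3373) was 1854 with ZT4 left out and 434 with that ratio. The 12 genes with peaks at ZT4 and ZT16 became 31 with median-of-ratios scaling, 26 with the authors' effective library sizes, 20 with limma-voom and 19 on the values as deposited, and the 522 genes that differed from NRF became 836 with limma-voom. The cause was not tested. Scaling by effective sizes, the genes of whole reads only and the single libraries left out were chosen after seeing the data.

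Without one replicate number of every group, the counts ran from 2481 to 4820 for 24 h, 1873 to 2625 for 12 h, 528 to 1051 for 8 h, 0 to 9 for ZT4 with ZT16, 0 for each other pair and 67 to 257 for the difference from NRF. Without one DRF library they ran from 4142 to 5370, 2766 to 3901, 1052 to 1971, 1 to 16, 0 and 357 to 719. The highest 24-h count was without ZT4 replicate 4, and the highest 12-h, 8-h and difference counts were without ZT20 replicate 2.

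Deviations from the group mean correlated at a median of -0.03 between same-numbered mice of different times, against 0.0 between differently numbered mice. Of 84 same-numbered pairs, 30 had a correlation over 0.1, and 6 of 28 mice correlated best with their own number. Single marker sums could still go with a number, since the adipose sums were high in replicates 1 and 4 at both ZT12 and ZT20. With the replicate number as a block the counts were 4417, 3286, 1367, 9, 0, 0 and 476, and 182 of 186 single-gene results kept their call. It was also kept by 180 under median-of-ratios scaling and 183 under limma-voom, none reversed, and by 114 of 143 with ZT4 left out.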
